A study of Homo sapiens with 14 samples.

Results

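Expression of 10 S100 calcium-binding protein genes was followed across 14 RNA sequencing libraries of 2 cancer cell lines. The genes were taken by symbol (S100A2, S100A3, S100A4, S100A6, S100A10, S100A11, S100A13, S100A14, S100A16 and S100P) from the 60683 genes of the count tables, and are 10 of the 20 protein-coding S100 genes in GENCODE release 44. A549, an epithelial lung cancer line, was left untreated, was given 2 μM palbociclib (an inhibitor of CDK4 and CDK6), 0.5 μM indisulam (a sulfonamide that directs the splicing factor RBM39 to a ubiquitin ligase for degradation) or both drugs for 10 days, or was given 0.5 μM PF-06873600 (which blocks CDK2 as well as CDK4 and CDK6) for 7 days. SUM159, a triple negative breast cancer line, was left untreated or was given 0.5 μM PF-06873600 for 7 days. The labels name no genetic change in any group, and the sources used here do not say when untreated cells were harvested. Each of the 7 groups had 2 libraries, which the series describes as technical duplicates, so p-values measure only the spread between such duplicates. Libraries held 13060374 to 21149256 counts on genes. Levels are given as CPM (the count of a gene scaled by the library's total on genes), and 3 counts, the floor used here for a single library, equal 0.142 to 0.230 CPM.

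S100 proteins are small EF-hand proteins that mostly work as dimers. Calcium binding opens a hydrophobic cleft with which most of them take hold of target proteins such as annexins, non-muscle myosin and p53, and several are also released from cells and act on surface receptors such as RAGE, encoded by AGER. Most of their genes lie near one another in and around the epidermal differentiation complex of band 1q21, among the genes of the cornified envelope of skin, and S100A8 and S100A9 are best known from neutrophils and stressed keratinocytes.

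The labels of the lines were checked against marker genes. Untreated A549 cells had a mean of 2126 CPM of the keratin gene KRT8, 2521 CPM of KRT18 and 156 CPM of the cadherin gene CDH1. Untreated SUM159 cells had 0.0905 CPM of CDH1, 0.641 CPM of EPCAM and 4162 CPM of the mesenchymal filament gene VIM. The epithelial keratin gene KRT7 went the other way, with 1877 CPM in SUM159 against 982 CPM in A549, and SUM159 also held 417 CPM of KRT8. A549 in turn held 665 CPM of VIM and 1626 CPM of the fibronectin gene FN1. Defining genes of alveolar lung cells were near absent from untreated A549, with SFTPB at 0 counts and NKX2-1 at 0.101 CPM. A list of 9 proliferation genes served to check the treatments, and all 9 fell both in the A549 combination and in SUM159 given PF-06873600. The other A549 treatments were mixed. With palbociclib 3 were higher and 4 lower, with indisulam 3 and 3, and with PF-06873600 4 and 4. Of all genes tested 30.0% fell in the combination and 35.6% in SUM159. In A549 8.30% rose and 7.40% fell with palbociclib, 28.0% and 17.5% with indisulam, and 28.5% and 27.8% with PF-06873600. In bulk RNA, fewer cells that express a gene and less of its RNA per cell cannot be told apart.

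Of the 10 genes, 9 lie on the minus strand of chromosome 1 in hg38. From low to high coordinates they are S100A10 (chr1:151982915-151993859), S100A11 (chr1:152032506-152047907), S100A6 (chr1:153534599-153536244), S100A4 (chr1:153543613-153550136), S100A3 (chr1:153547329-153549258), S100A2 (chr1:153561108-153567890), S100A16 (chr1:153606886-153613145), S100A14 (chr1:153614255-153616986) and S100A13 (chr1:153618787-153631360). S100P stands apart on the plus strand of chromosome 4 (chr4:6693878-6697170). S100A3 lies within the span of S100A4 on the same strand, but the exons of these genes share 0 bases. S100A13 shares 235 exon bases (10.6% of its exons) with S100A1 on the other strand, and S100A1 held at most 11 counts in a library. It also shares 536 exon bases (24.2%) with an unnamed long non-coding RNA gene on its own strand, which held 0 counts in all libraries, so the level of S100A13 is uncertain where reads in shared bases were set aside. How strand was used in counting is not given in the sources used here.

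The 250 bases before the RefSeq start are shown for S100P, S100A3 and S100A2 (1 of its 2 RefSeq starts), which had some of the largest changes, and for S100A10, an abundant member that moved less (RefSeq, GRCh38.p14, each read 5′ to 3′ on the strand of its gene). Capitals mark every match, on either strand, to 4 short words, which were TATAAA for the core promoter element of that name, TGANTCA for sites of the factor AP-1, GGGCGG for boxes read by SP factors and CCAAT for the element of that name.
S100P (chr4:6693628-6693877, plus): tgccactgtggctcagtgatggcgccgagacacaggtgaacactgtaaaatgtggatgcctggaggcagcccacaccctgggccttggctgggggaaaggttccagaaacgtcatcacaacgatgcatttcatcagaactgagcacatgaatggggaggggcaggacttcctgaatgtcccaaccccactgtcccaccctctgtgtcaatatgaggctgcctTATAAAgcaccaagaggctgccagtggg
S100A3 (chr1:153549259-153549508, minus): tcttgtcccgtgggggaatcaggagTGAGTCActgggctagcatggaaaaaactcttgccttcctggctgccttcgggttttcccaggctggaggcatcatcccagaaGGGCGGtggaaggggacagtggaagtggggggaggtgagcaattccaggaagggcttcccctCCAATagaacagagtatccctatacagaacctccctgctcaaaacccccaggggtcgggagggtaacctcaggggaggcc
S100A2 (chr1:153565845-153566094, minus): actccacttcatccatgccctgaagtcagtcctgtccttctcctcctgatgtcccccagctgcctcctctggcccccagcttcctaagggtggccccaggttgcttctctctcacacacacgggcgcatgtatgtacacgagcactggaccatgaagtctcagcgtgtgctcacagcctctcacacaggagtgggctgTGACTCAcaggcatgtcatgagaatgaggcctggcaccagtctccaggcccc
S100A10 (chr1:151993860-151994109, minus): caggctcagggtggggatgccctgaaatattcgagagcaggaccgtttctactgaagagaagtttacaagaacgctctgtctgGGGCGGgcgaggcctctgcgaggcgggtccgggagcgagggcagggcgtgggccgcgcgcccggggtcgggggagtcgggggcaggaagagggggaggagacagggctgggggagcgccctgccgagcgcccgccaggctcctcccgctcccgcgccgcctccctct
The S100P window holds a TATAAA word that begins 28 bases before the start. The S100A3 window, which lies inside the span of S100A4, holds an AP-1 word at 225 bases, a GC box at 142 bases and a CCAAT box at 80 bases before the start. The S100A2 window, which lies inside the longer GENCODE span of that gene, holds an AP-1 word at 52 bases, while the window of its other RefSeq start (chr1:153563888-153564137) holds 0 matches, and the S100A10 window holds a GC box at 167 bases before the start. Among 35116 promoters of the same length, 10.7% hold the TATA word, 6.57% the AP-1 word, 42.6% the GC box and 32% the CCAAT box. Of the 14 windows of the 10 genes, 3, 2, 6 and 3 hold them. A match is a stretch of letters and does not show that a factor was bound.

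Levels of different genes can be compared only per length of exon. In untreated A549 the highest members were S100A4, known for its link to metastasis and its binding of non-muscle myosin, at 1036 ± 82.3 CPM per kb (mean ± SD, n = 2), and S100A6 (calcyclin) at 953 ± 25.7 CPM per kb, within overlapping SDs. They were followed by S100A11, a partner of annexin A1, at 584 ± 8.05 CPM per kb, S100A10, the light chain of annexin A2, at 525 ± 21.5 CPM per kb, and the broadly expressed S100A16 at 149.7 ± 1.75 CPM per kb. Below them came S100P at 77.5 ± 3.48, S100A13 at 21.7 ± 1.68, S100A3 at 9.49 ± 0.640, S100A14 at 1.37 ± 0.242 and S100A2 at 0.784 ± 0.0108 CPM per kb. In untreated SUM159 S100A6 was highest, at 890.1 ± 50.9 CPM per kb. S100A11 at 427 ± 21.6 and S100A10 at 426 ± 24.2 CPM per kb did not differ beyond their spread there. S100A4 came next in SUM159, at 254 ± 7.40 CPM per kb, followed by S100A16 at 176 ± 5.96, S100A2 at 35.9 ± 0.706, S100A3 at 14.05 ± 1.23 and S100A13 at 11.99 ± 1.07 CPM per kb. S100P and S100A14 ended the order in SUM159, both under 1 CPM per kb.

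The 10 genes together took 0.307% and 0.326% of the counts on genes in the untreated A549 libraries. This share was 0.323% and 0.311% with palbociclib, 0.299% and 0.305% with indisulam, 0.388% and 0.365% with the combination, and 0.386% and 0.383% with PF-06873600. The combination and PF-06873600 libraries thus lay above all 6 others of the line. In SUM159 the share was 0.228% and 0.213% in untreated cells and 0.272% and 0.276% with PF-06873600. By counts S100A6 ranked 112 among all genes in both untreated A549 libraries. In SUM159 it ranked 101 and 107 in untreated and 71 and 70 in treated libraries.

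**Figure D1:**
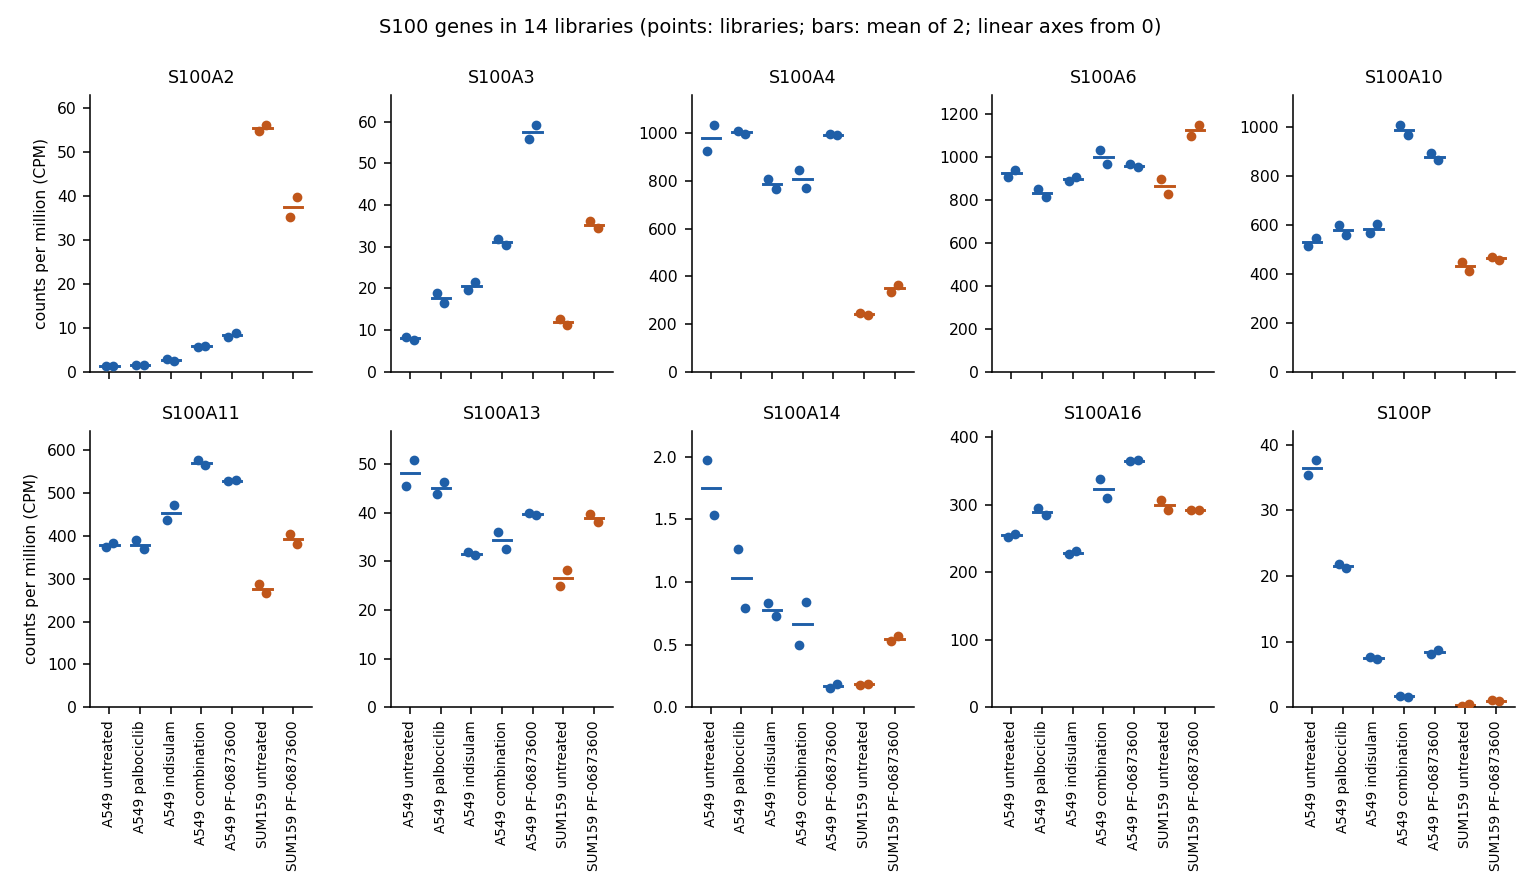
Level of each of the 10 S100 genes in CPM (linear vertical axes from 0, a separate scale for each gene) in the 7 groups, with a point for each library, a bar for the mean of 2, blue for A549 and orange for SUM159. S100P runs from 35.3 and 37.7 CPM in untreated A549 down to 1.77 and 1.61 CPM in the combination, while S100A6 stays between 814 and 1035 CPM in every A549 library.

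Palbociclib alone was compared with no treatment to see what CDK4/6 inhibition does by itself in A549. It moved few of these genes: S100A3 and S100A16 rose and S100P fell, so 3 of 10 members were called, where 15.7% of the 15780 genes tested were called (8.30% higher, 7.40% lower). A call is an adjusted p under 0.05 in edgeR's quasi-likelihood test with Benjamini-Hochberg adjustment over all genes tested, given below as the edgeR adjusted p. The spread in this test comes from all 10 A549 libraries. In a model of the untreated and palbociclib libraries alone, 543 of 14341 genes tested were higher and 406 lower. There S100A16 was not called (edgeR adjusted p = 0.191). S100A3, a cysteine-rich protein best known from the hair cuticle, had 8.36 and 7.60 CPM in the untreated libraries and 18.8 and 16.4 CPM with palbociclib. The groups did not overlap, and the gene rose 2.201-fold (log2 fold change 1.14 ± 0.11 (SE), edgeR adjusted p = 1.21e-05). Of all genes tested, 50.5% had no overlap in this comparison. S100P, a placental and carcinoma-associated ligand of RAGE and ezrin, went from 35.3 and 37.7 CPM to 21.8 and 21.3 CPM. Both treated libraries lay well below both untreated ones (log2 fold change -0.76 ± 0.09 (SE), edgeR adjusted p = 4.46e-05). S100A16 had 253 and 257 CPM untreated and 295 and 285 CPM with palbociclib, a small rise (log2 fold change 0.19 ± 0.06 (SE), edgeR adjusted p = 0.0386) that was not called without either palbociclib library (edgeR adjusted p = 0.203 without replicate 1 and 0.102 without replicate 2). S100A2, S100A4, S100A6, S100A10, S100A11, S100A13 and S100A14 did not pass the test, although S100A6 was called lower without untreated replicate 1 (adjusted p = 0.0229). Among them S100A4 had 1009 and 998 CPM against 925 and 1035 CPM untreated, with both treated values inside the untreated range, and S100A11 had 390.0 and 370.1 CPM against 375 and 383 CPM.

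Indisulam alone, compared with no treatment to see what that drug does by itself, was followed by calls for more of the family. S100A2, S100A3 and S100A11 rose, and S100A4, S100A13, S100A14, S100A16 and S100P fell, 8 of 10 members against 45.5% of all genes tested (28.0% higher, 17.5% lower). Of all calls in this comparison 61.6% were higher, a share that was 50.4% with TMM scaling. S100P was at 7.67 and 7.33 CPM, far under its untreated libraries, and fell by 2.28 on the log2 scale (SE 0.10, edgeR adjusted p = 4.46e-10). S100A3 reached 19.7 and 21.4 CPM, above all untreated and palbociclib libraries (log2 fold change 1.37 ± 0.11 (SE), edgeR adjusted p = 2.45e-07). S100A2, a nuclear protein of basal epithelia and a p53 target, had 1.22 and 1.20 CPM untreated and 2.76 and 2.31 CPM with indisulam (log2 fold change 1.06 ± 0.24 (SE), edgeR adjusted p = 0.00264). S100A13, which is released from cells in a complex with FGF1, had 45.5 and 50.8 CPM untreated and 31.9 and 31.3 CPM with indisulam, with no overlap (log2 fold change -0.61 ± 0.08 (SE), edgeR adjusted p = 3.05e-05). A lack of overlap was seen for 68.9% of all genes tested in this comparison. S100A4 was lower as well, at 809 and 768 CPM (log2 fold change -0.31 ± 0.06 (SE), edgeR adjusted p = 0.0012). S100A11 had 375 and 383 CPM untreated and 436 and 472 CPM with indisulam (log2 fold change 0.26 ± 0.06 (SE), edgeR adjusted p = 0.00163). The calls of S100A14, an epithelial member with 29 and 23 counts untreated against 12 and 11 with indisulam, and of S100A16 (log2 fold change -0.16 ± 0.06 (SE), edgeR adjusted p = 0.0374) were lost in several settings. S100A14 was not called by DESeq2 (adjusted p = 0.134), nor without untreated replicate 1 (0.0898), indisulam replicate 1 (0.0557) or indisulam replicate 2 (0.0908), and S100A16 not without untreated replicate 2 (0.0562), indisulam replicate 1 (0.164) or indisulam replicate 2 (0.0960). S100A6 and S100A10 did not pass the test, although S100A10 was called higher without untreated replicate 2 (adjusted p = 0.0181).

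In the combination the changes of the family ran from S100A2 at 4.73 times its untreated level to S100P at 0.0464 times. S100A2, S100A3, S100A10, S100A11 and S100A16 rose and S100A4, S100A13 and S100P fell, 8 of the 9 members above the filter's limit on low counts in both groups, where 65.2% of all genes tested were called (35.1% higher, 30.0% lower). S100A14 was below that limit in the combination and is left out of this count. The median log2 fold change was 0.23 over the 10 members and 0.05 over all genes tested.

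S100P had 1.77 and 1.61 CPM (25 counts in each library) in the combination against 35.3 and 37.7 CPM (520 and 565 counts) in untreated cells. Both libraries lay below every other A549 library (log2 fold change -4.43 ± 0.13 (SE), edgeR adjusted p = 1.22e-12), and the untreated to treated ratio was 21.6 (95% exact interval 16.3 to 29.4 from the summed counts, counting error only). S100A2 had 5.67 and 5.86 CPM, above the libraries of untreated, palbociclib and indisulam cells (log2 fold change 2.24 ± 0.21 (SE), edgeR adjusted p = 3.00e-07). It remained a low gene, with 171 counts in both combination libraries together against 36 in both untreated ones. S100A3 had 31.8 and 30.3 CPM, again above those 6 libraries (log2 fold change 1.96 ± 0.11 (SE), edgeR adjusted p = 7.91e-10).

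Among the abundant members, S100A10 moved most. It had 516 and 547 CPM untreated and 1011 and 969.9 CPM in the combination, a rise of 1.86-fold with no overlap (log2 fold change 0.90 ± 0.06 (SE), edgeR adjusted p = 6.29e-09). Of all genes tested, 80.4% had no overlap in this comparison. S100A11 had 577 and 565 CPM and rose 1.51-fold (log2 fold change 0.59 ± 0.06 (SE), edgeR adjusted p = 3.30e-07), and S100A16 had 338 and 309.5 CPM and rose 1.27-fold (log2 fold change 0.35 ± 0.06 (SE), edgeR adjusted p = 8.41e-05). S100A6 had 1035 and 969.9 CPM against 907 and 943 CPM and was not called (log2 fold change 0.12 ± 0.05 (SE), edgeR adjusted p = 0.0734), except without untreated replicate 2 (adjusted p = 0.0264). S100A4 was lower at 845 and 768 CPM (log2 fold change -0.28 ± 0.06 (SE), edgeR adjusted p = 0.00143), and S100A13 was lower at 35.9 and 32.6 CPM (log2 fold change -0.49 ± 0.08 (SE), edgeR adjusted p = 8.85e-05). S100A14 had 7 and 13 counts in the combination against 29 and 23 untreated, an untreated to treated ratio of 2.59 (95% exact interval 1.52 to 4.59 from summed counts).

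The combination was then set against each drug alone, to see what each one added to the other. S100A14, below the filter's limit in the combination, is among the 10 members in both counts and was not called. Against palbociclib, S100A2, S100A3, S100A6, S100A10, S100A11 and S100A16 were higher and S100A4, S100A13 and S100P lower, 9 of 10 members against 60.4% of all genes (33.5% higher, 26.9% lower). S100A6 had 853 and 814 CPM with palbociclib, the lowest of its A549 libraries, and its combination libraries stood 1.20-fold higher (log2 fold change 0.27 ± 0.05 (SE), edgeR adjusted p = 0.000675). The call of S100A16 in this comparison was lost with TMM scaling (adjusted p = 0.337) and with DESeq2 (adjusted p = 0.158), and without palbociclib replicate 2 (0.137) or combination replicate 1 (0.255). Against indisulam, S100A2, S100A3, S100A6, S100A10, S100A11 and S100A16 were higher and only S100P was lower, 7 of 10 members against 46.0% of all genes (22.0% higher, 23.9% lower). S100A10 was 1.69-fold higher than with indisulam (log2 fold change 0.76 ± 0.06 (SE), edgeR adjusted p = 1.15e-07), and S100P was at 0.226 times its indisulam level (log2 fold change -2.15 ± 0.17 (SE), edgeR adjusted p = 1.07e-07). S100A6 (log2 fold change 0.16 ± 0.05 (SE), edgeR adjusted p = 0.0296) was no longer called when indisulam replicate 1 (adjusted p = 0.138), indisulam replicate 2 (0.0827) or combination replicate 1 (0.234) was left out. S100A4 had 0.03 ± 0.06 (edgeR adjusted p = 0.716) on the log2 scale and S100A13 0.12 ± 0.08 (edgeR adjusted p = 0.276), so that the drop of these genes below untreated cells was seen with indisulam with or without palbociclib.

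The interaction term asks whether the combination differs from the sum of the single-drug log2 fold changes. For 5 members (S100A2, S100A6, S100A10, S100A11 and S100A16) the combination lay above that sum and for 2 (S100A3 and S100P) below it, 7 of 10 against 25.2% of all genes (10.7% above, 14.5% below). These 10 include S100A14, which was below the filter's limit in the combination and was not called. S100A10 was the clearest of the abundant genes. Its single-drug changes summed to 0.26 on the log2 scale and its combination change was 0.90, an excess of 0.63 ± 0.08 (edgeR adjusted p = 6.48e-05). S100A11 had a sum of 0.27 and a combination change of 0.59, an excess of 0.33 ± 0.08 (edgeR adjusted p = 0.00741). S100A16 had a sum of 0.03 and a combination change of 0.35, an excess of 0.32 ± 0.08 (edgeR adjusted p = 0.00967), and S100A6 a sum of -0.19 and a combination change of 0.12, an excess of 0.31 ± 0.08 (edgeR adjusted p = 0.00911). S100P had a sum of -3.04 and a combination change of -4.43, a shortfall of -1.39 ± 0.19 (edgeR adjusted p = 0.000106). S100A3 rose with each drug, by a sum of 2.50, but reached only 1.96 in the combination (-0.54 ± 0.15 (edgeR adjusted p = 0.0153)). S100A2 had 0.97 ± 0.33 (edgeR adjusted p = 0.0474), and this call held with a mean of at least 50 counts (adjusted p = 0.0390) but was lost in all 13 other settings tried, among them TMM scaling (adjusted p = 0.0513), DESeq2 (adjusted p = 0.189) and each library left out (adjusted p = 0.0526 to 0.141). S100A3 was not called with DESeq2 (adjusted p = 0.0664), nor without palbociclib replicate 1 (0.0725), indisulam replicate 2 (0.0637) or combination replicate 2 (0.0592). Without combination replicate 1, 4 members were called in place of 7, with S100A2 (adjusted p = 0.0795), S100A6 (0.0550) and S100A16 (0.0649) lost.

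**Figure D2:**
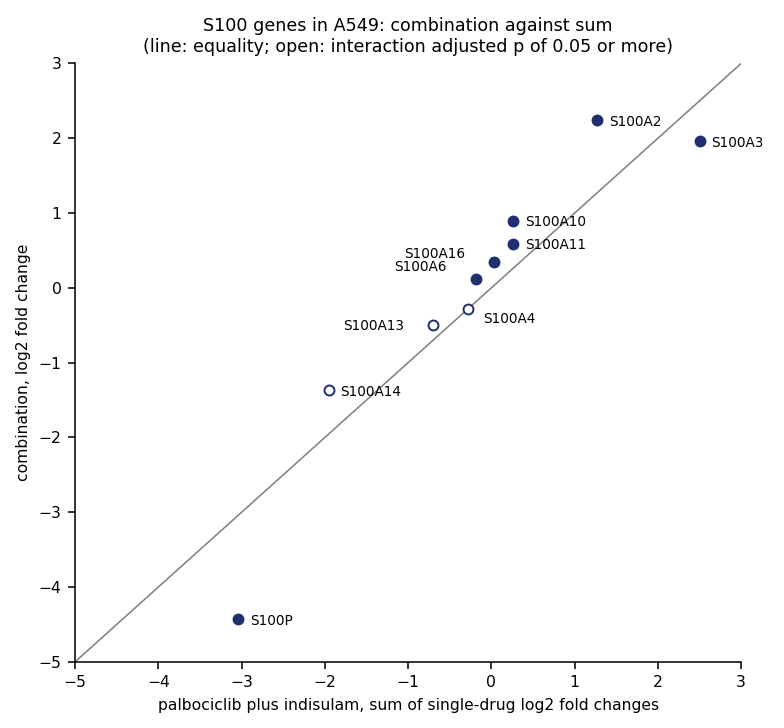
Log2 fold change of each S100 gene in the A549 combination (vertical axis) against the sum of its log2 fold changes with palbociclib alone and indisulam alone (horizontal axis). The line marks equality, filled points have an interaction adjusted p under 0.05, and S100A10 (0.26 against 0.90) and S100P (-3.04 against -4.43) lie on opposite sides of the line.

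PF-06873600 was included as a single agent that inhibits CDK2 together with CDK4 and CDK6. In A549 it raised S100A2, S100A3, S100A10, S100A11 and S100A16 and lowered S100A13 and S100P, 7 of the 9 members above the filter's limit in both groups, against 56.3% of all genes (28.5% higher, 27.8% lower). S100A14 is left out of this count. S100A3 had 55.7 and 59.3 CPM, the highest of its 14 libraries, and stood 7.21-fold above untreated cells (log2 fold change 2.85 ± 0.10 (SE), edgeR adjusted p = 2.16e-11). S100A2 had 7.96 and 8.78 CPM, the highest of its A549 libraries (log2 fold change 2.78 ± 0.20 (SE), edgeR adjusted p = 2.78e-08). S100A14 came down to 2 and 3 counts, an untreated to treated ratio of 10.2 (95% exact interval 4.12 to 32.8 from summed counts). It was above the filter's limit in untreated cells only, and at this depth the treated value is at the limit of detection.

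S100P had 8.04 and 8.72 CPM with PF-06873600 (log2 fold change -2.12 ± 0.10 (SE), edgeR adjusted p = 3.43e-10). S100A10 had 894 and 866 CPM (log2 fold change 0.73 ± 0.06 (SE), edgeR adjusted p = 1.08e-07), S100A16 had 365 and 366 CPM (log2 fold change 0.52 ± 0.06 (SE), edgeR adjusted p = 2.16e-06) and S100A11 had 528 and 531 CPM (log2 fold change 0.48 ± 0.06 (SE), edgeR adjusted p = 4.25e-06). All 3 of these abundant members lay above their untreated libraries with no overlap. Of all genes tested, 76% had no overlap in this comparison. S100A13 had 40.0 and 39.4 CPM (log2 fold change -0.28 ± 0.08 (SE), edgeR adjusted p = 0.00808), a call that was not made by DESeq2 (adjusted p = 0.0516), nor without untreated replicate 2 (0.0560) or PF-06873600 replicate 2 (0.0601). S100A4 at 996 and 992 CPM and S100A6 at 969 and 954 CPM did not pass the test. The combination and PF-06873600 differ in drugs, doses and days of treatment, so their values stand side by side here and were not compared. They also share the untreated libraries.

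**Figure D3:**
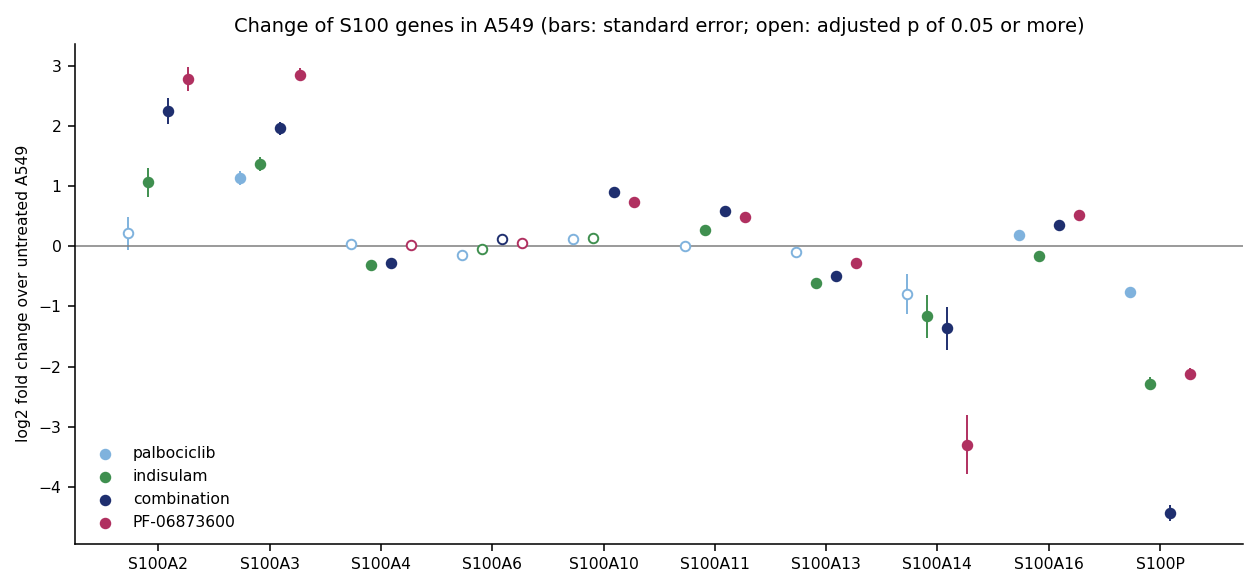
Log2 fold change over untreated A549 of each S100 gene with palbociclib, indisulam, the combination and PF-06873600 (points; vertical bars are standard errors; open points have an adjusted p of 0.05 or more). S100A2 and S100A3 are highest with PF-06873600 (2.78 and 2.85), S100P is lowest in the combination (-4.43), and S100A6 has open points throughout.

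Other markers moved in the same A549 libraries. The summed level of 8 epithelial genes was 6690 and 5760 CPM untreated, 9150.4 and 9284 CPM with palbociclib, 10306 and 10298 CPM with indisulam, 14057 and 13477 CPM in the combination and 14553 and 14655 CPM with PF-06873600, with KRT8 or KRT18 the most abundant. Of these 8 genes 3 rose and 2 fell with palbociclib, 6 and 0 with indisulam, 6 and 2 in the combination, and 4 and 2 with PF-06873600. In the same order 8.30%, 28.0%, 35.1% and 28.5% of all genes tested rose, and 7.40%, 17.5%, 30.0% and 27.8% fell. CDH1 went from 156 CPM untreated to 128 CPM in the combination and 95.6 CPM with PF-06873600, and EPCAM from 19.4 to 14.5 and 8.04 CPM. The summed level of 6 mesenchymal genes was 2484 and 2252 CPM untreated, 2460.2 and 2270.4 CPM with palbociclib, 3214 and 3087 CPM with indisulam, 3738 and 3694 CPM in the combination and 3019 and 3157 CPM with PF-06873600, with FN1 the most abundant. In each of the 4 comparisons with untreated cells 5 of these genes were above the filter's limit in both groups. Of these 5, 1 rose with palbociclib, 4 with indisulam, 3 in the combination and 4 with PF-06873600, and 0 fell. In the same order 8.30%, 28.0%, 35.1% and 28.5% of all genes tested rose. SNAI2, below that limit in untreated cells, is left out. VIM went from 665 to 1767 CPM in the combination and 1110 CPM with PF-06873600. CDH2 went from 41.9 to 93.4 and 56.1 CPM, while FN1 was not called in the combination (1626 to 1790 CPM). The part of these epithelial and mesenchymal markers in the S100 changes was not tested.

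Before treatment the 2 lines differed strongly in some members and hardly in others. S100A2, S100A3 and S100A16 were higher in SUM159 and S100A4, S100A10, S100A11 and S100A13 were lower, 7 of the 8 members above the filter's limit in both lines, against 78.7% of all genes tested (41.9% higher, 36.8% lower). S100A2 had 54.7 and 56.2 CPM in SUM159, 45.5 times its A549 level (log2 fold change 5.51 ± 0.14 (SE), edgeR adjusted p = 1.67e-17). S100P was almost absent from SUM159, with 3 and 8 counts against 520 and 565 in A549, an A549 to SUM159 ratio of 108 (95% exact interval 60.2 to 217). The fitted ratio was 71.7 without SUM159 replicate 1 and 193 without replicate 2. S100P and S100A14 were above the filter's limit only in A549 and are left out of the count. S100A4 had 245 and 235 CPM in SUM159, 0.245 times its A549 level (log2 fold change -2.03 ± 0.07 (SE), edgeR adjusted p = 1.44e-15). S100A14 had 3 counts in each SUM159 library, an A549 to SUM159 ratio of 9.49 (95% exact interval 4.08 to 27.1). S100A10, S100A11, S100A3 and S100A13 differed by less than 1 on the log2 scale. S100A16 had 307 and 293 CPM (log2 fold change 0.24 ± 0.06 (SE), edgeR adjusted p = 0.000702), which TMM scaling did not call (adjusted p = 0.0513). S100A6 had 899 and 829 CPM (log2 fold change -0.10 ± 0.06 (SE), edgeR adjusted p = 0.132) and was called lower with TMM scaling (adjusted p = 0.00667) and with DESeq2 (adjusted p = 0.00589), and without SUM159 replicate 1 (0.0383).

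In SUM159, PF-06873600 raised S100A3, S100A4, S100A6, S100A11 and S100A13 and lowered S100A2, 6 of the 8 members above the filter's limit in both groups, against 73.7% of all genes (38.1% higher, 35.6% lower). S100P passed only through the treated libraries and is left out of this count. S100A14 was too low to be tested in this line. S100A3 had 12.5 and 11.1 CPM untreated and 36.1 and 34.4 CPM treated, a rise of 2.98-fold (log2 fold change 1.57 ± 0.09 (SE), edgeR adjusted p = 9.64e-10). S100A4 had 335 and 364 CPM treated, above both untreated libraries (log2 fold change 0.54 ± 0.06 (SE), edgeR adjusted p = 1.06e-06). S100A13 had 24.9 and 28.2 CPM untreated and 39.8 and 38.2 CPM treated (log2 fold change 0.55 ± 0.08 (SE), edgeR adjusted p = 1.93e-05). S100A11 had 287 and 267 CPM untreated and 406 and 380.3 CPM treated (log2 fold change 0.50 ± 0.06 (SE), edgeR adjusted p = 2.60e-06).

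S100A6 had 1101 and 1152 CPM in treated SUM159, the highest of its 14 libraries (log2 fold change 0.38 ± 0.07 (SE), edgeR adjusted p = 0.000152). S100A2 went the other way, to 35.2 and 39.8 CPM, with both treated libraries below both untreated ones (log2 fold change -0.56 ± 0.07 (SE), edgeR adjusted p = 5.27e-06). A lack of overlap was seen for 86.1% of all genes tested in this comparison. S100P had 18 and 19 counts treated against 3 and 8 untreated, a ratio of 2.86 (95% exact interval 1.43 to 6.22). The fitted ratio was 1.92 without untreated replicate 1 and 5.19 without replicate 2. Since S100P passed the filter only through the treated libraries, its edgeR result is not read as a call. DESeq2 did not call it (adjusted p = 0.106). S100A10 at 471 and 457 CPM (log2 fold change 0.11 ± 0.06 (SE), edgeR adjusted p = 0.13) and S100A16 at 292 and 292 CPM (log2 fold change -0.04 ± 0.06 (SE), edgeR adjusted p = 0.535) did not pass the test, although S100A10 was called higher without untreated replicate 1 (adjusted p = 0.000782). S100A14 had 9 and 12 counts treated against 3 and 3 untreated, a ratio of 2.98 (95% exact interval 1.16 to 9.02).

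Whether SUM159 and A549 responded differently to PF-06873600 was tested by itself, and the difference was called for 7 of 8 members, 3 with a higher and 4 with a lower log2 response in SUM159, against 53.0% of all genes (25.8% higher, 27.2% lower). S100A2 rose in A549 and fell in SUM159, a difference of -3.35 ± 0.20 (edgeR adjusted p = 6.71e-11) on the log2 scale. S100A13 did the opposite, with a difference of 0.83 ± 0.12 (edgeR adjusted p = 5.35e-06). S100P fell in A549 and had more counts in treated than in untreated SUM159. Its fitted difference was 3.61, and was 3.06 without untreated SUM159 replicate 1 and 4.49 without replicate 2. S100P is left out of this count, since it passed the filter in SUM159 only through the treated libraries, and so is S100A14, which was too low to be tested in SUM159 alone, entered the model only through A549, and held 5 counts together in treated A549 and 6 in untreated SUM159. S100A3 rose in both lines but less in SUM159 (-1.28 ± 0.14 (edgeR adjusted p = 4.13e-07)). S100A10 and S100A16 were called higher in A549 only, and their responses differed by -0.62 ± 0.09 (edgeR adjusted p = 4.90e-06) and -0.56 ± 0.08 (edgeR adjusted p = 5.32e-06). S100A4 and S100A6 were called higher in SUM159 only, with differences of 0.52 ± 0.09 (edgeR adjusted p = 9.84e-05) and 0.33 ± 0.08 (edgeR adjusted p = 0.00241). S100A11 rose in both lines, and its difference of 0.02 ± 0.08 (edgeR adjusted p = 0.873) did not pass the test.

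**Figure D4:**
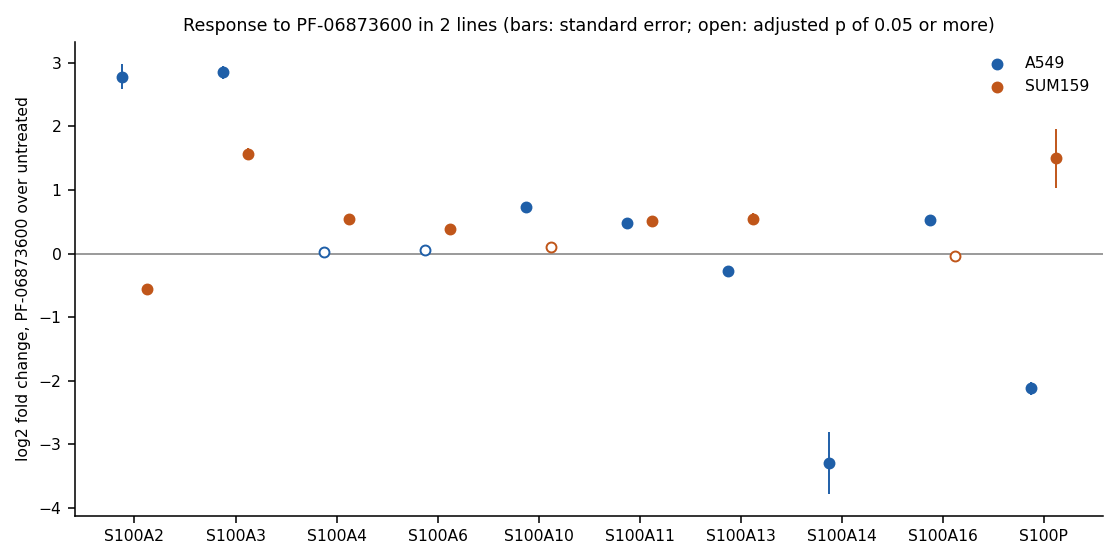
Log2 fold change of each S100 gene with PF-06873600 over untreated cells in A549 (blue) and SUM159 (orange), with standard errors as vertical bars and open points for an adjusted p of 0.05 or more. S100A2 (2.78 and -0.56) lies on opposite sides of 0 in the lines, the SUM159 point of S100P rests on 3 and 8 untreated and 18 and 19 treated counts, S100A11 (0.48 and 0.50) has close values in both, and S100A14 has no SUM159 point because it was not tested there.

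The other 10 protein-coding S100 genes were near absent, except for S100A8 and S100A9, the subunits of calprotectin, in treated SUM159. S100A8 had 2 and 0 counts in untreated and 187 and 272 counts in treated SUM159, a ratio of 195 (95% exact interval 53.8 to 1617). S100A9 had 0 and 2 counts untreated and 390 and 609 treated, a ratio of 425 (95% exact interval 117 to 3514). Both treated libraries were far above the 12 others, in which S100A8 reached at most 2 and S100A9 at most 12 counts. In A549 S100A9 had 5 and 12 counts with PF-06873600. Both genes passed the filter only through treated SUM159 libraries, and S100A8 held at most 1 count in any A549 library, so the ratios are given with counting intervals and the difference in response between lines is not given. The remaining 8 genes, S100A1, S100A5, S100A7, S100A7A, S100A12, S100B, S100G and S100Z, stayed under 1 CPM on average in every group.

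Markers of blood, vessel and stromal cells also moved in SUM159. The summed level of 8 such genes was 50.9 and 53.6 CPM untreated and 387 and 406.5 CPM treated, and all 5 that were tested rose, where 38.1% of all genes tested did, with COL3A1 the most abundant in treated cells (12.2 to 298 CPM). PTPRC, which marks blood cells, went from 9.62 to 19.1 CPM and the monocyte gene CD14 from 0.83 to 3.58 CPM. The stromal gene PDGFRB went from 18.3 to 49.2 CPM and the vessel gene PECAM1 from 11.2 to 26.6 CPM. LYZ had 4 counts in each treated library and the T cell gene CD3E had 0 counts in all libraries. The summed level of the 6 mesenchymal genes went from 7419 and 7854 CPM to 17628.5 and 17734 CPM. Of these 6 genes 2 rose and 3 fell, where 38.1% of all genes tested rose and 35.6% fell. FN1, which went from 3146 to 13737 CPM, made up most of the sum in treated cells. VIM went from 4162 to 3609 CPM, SNAI2 from 63.9 to 45.4 CPM and TWIST1 from 17.9 to 11.4 CPM. The summed level of the 8 epithelial genes went from 2677 and 2533 CPM to 1140 and 1177 CPM, with KRT7 going from 1877 to 720 CPM. Squamous keratin genes moved both ways. KRT5 had 10 and 11 counts untreated and 66 and 102 treated, and KRT6A had 107 and 100 untreated and 28 and 33 treated. KRT14, below the filter's limit in untreated cells, had 5 and 2 counts untreated and 40 and 57 treated. The part of all these markers in the S100 changes of SUM159, the rise of S100A8 and S100A9 included, was not tested.

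Genes of the cornified envelope, which share the 1q21 complex with the S100 genes, were near 0 in untreated A549. Of 15 squamous and complex genes 6 passed the filter on low counts in A549, all of them below its limit in untreated cells and above it in the combination, so they passed only through groups in which they were high and no count of calls is given. Involucrin (IVL) had 0 counts in both untreated libraries and in both palbociclib libraries, and 62 and 74 counts in the combination. SPRR1A had 0 counts untreated, 61 and 54 in the combination and 11 and 12 with PF-06873600. SPRR3 had 1 count in each untreated library, 79 and 75 in the combination and 40 and 41 with PF-06873600. LCE3D, a late envelope gene of the same complex, had 0 counts untreated and 72 and 57 in the combination, but 1 and 0 with PF-06873600. These genes stayed at a few CPM at most.

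Of 101 other annotated genes between the outermost S100 genes of chromosome 1, or within 200 kb outside them, 20 passed the filter in A549. They include IVL, SPRR1A, SPRR3 and TCHH of the squamous list, LCE3D, LCE3E, TDRKH-AS1 and an unnamed long non-coding RNA gene. All of these were below the filter's limit in untreated cells, so their calls in the combination are not counted. In the palbociclib comparison the genes just named were below the limit in both groups. There 11 of the 20 were above it in both groups, and edgeR called 0 of these 11, against 15.7% of all genes tested. Over all 20, 3 had an unadjusted p under 0.05 in edgeR, and DESeq2 called 0, with no adjusted p for 8 of them. LCE3D, LCE3E, IVL and SPRR1A had 0 counts in untreated and palbociclib libraries and could not be called there. In the combination comparison 11 of the 20 were above the limit in both groups. Of these 11, 2 rose and 6 fell, where 35.1% of all genes tested rose and 30.0% fell. ILF2, the most abundant, fell by 0.39 on the log2 scale (edgeR adjusted p = 6.23e-05) and CHTOP fell by 0.36 (edgeR adjusted p = 0.000196). INTS3 rose from 106 to 141 CPM (0.42 ± 0.12, edgeR adjusted p = 0.00557).

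**Figure D5:**
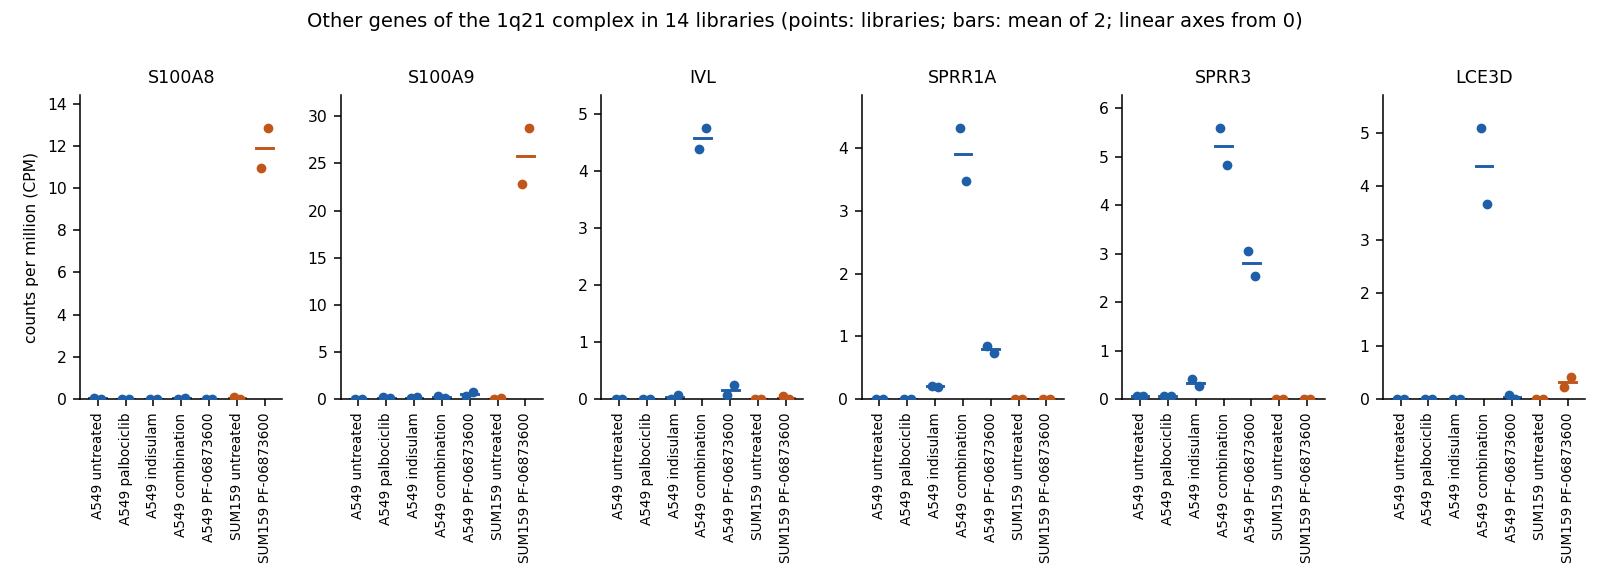
Levels in CPM (linear vertical axes from 0, a separate scale for each gene) of S100A8, S100A9, IVL, SPRR1A, SPRR3 and LCE3D in the 7 groups, with a point for each library and a bar for the mean of 2. S100A8 and S100A9 are raised in treated SUM159 (means 11.9 and 25.8 CPM), and IVL, SPRR1A, SPRR3 and LCE3D are highest in the A549 combination (means 4.58, 3.90, 5.21 and 4.39 CPM).

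Partners of S100 proteins were followed through a list of 25 genes, of which 24 were tested. FGF1 and MYL9 were below the filter's limit in untreated cells and are left out of the A549 counts. Of the other 22, with palbociclib 3 rose and 2 fell, with indisulam 11 rose and 2 fell, in the combination 12 rose and 4 fell, and with PF-06873600 12 rose and 5 fell, where 15.7%, 45.5%, 65.2% and 56.3% of all genes tested were called. ANXA2, which forms a heterotetramer with S100A10, had a mean of 2077 CPM untreated and 2985 CPM in the combination (log2 fold change 0.52 ± 0.05 (SE), edgeR adjusted p = 8.56e-07). With PF-06873600 it had 3574 CPM (0.78 ± 0.05, edgeR adjusted p = 1.94e-08). The partner and S100A10 thus rose together in both of these treatments. MYH9, the non-muscle myosin heavy chain that S100A4 binds, had 289 CPM untreated and 1232 CPM in the combination (2.09 ± 0.10, edgeR adjusted p = 1.70e-10), where S100A4 fell.

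ANXA1, a partner of S100A11, had 1421 CPM untreated, 1504 CPM in the combination (0.08 ± 0.06, edgeR adjusted p = 0.225) and 3004 CPM with PF-06873600 (1.08 ± 0.06, edgeR adjusted p = 1.12e-09). The myosin light chain gene MYL9, below the filter's limit in untreated cells, had 0.776 CPM untreated and 90.3 CPM in the combination. The giant scaffold gene AHNAK2 rose from 384 to 1015 CPM. FGF1, released from cells with S100A13, had 0 counts untreated and 43 and 37 counts in the combination. PLAT, the tissue plasminogen activator gene, had 1.86 CPM untreated and 19.2 CPM with PF-06873600 (3.37 ± 0.21, edgeR adjusted p = 5.09e-09).

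In SUM159 given PF-06873600, 11 partners rose and 10 fell, 87.5% of the 24 against 73.7% of all genes tested. ANXA2 rose there from 2387 to 3378 CPM (0.50 ± 0.08, edgeR adjusted p = 3.89e-05), whereas S100A10 was not called. The giant scaffold gene AHNAK had 1401 ± 450 CPM (mean ± SD, n = 2) untreated, from libraries that differed widely (17955 and 27459 counts), and 889 ± 53.6 CPM treated (-0.66 ± 0.14, edgeR adjusted p = 0.000773).

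EF-hand calcium sensors outside the S100 family formed another list. Of its 16 genes, 14 were tested in A549, and 6 rose and 3 fell in the combination (64.3% called, against 65.2% of all genes), with a median log2 fold change of 0.16 against 0.05 over all genes. CAPN2, a calpain subunit, went from 547 to 1021 CPM (0.90 on the log2 scale, edgeR adjusted p = 1.14e-09), and CAPNS1, the small calpain subunit, fell by 0.37 on the log2 scale (edgeR adjusted p = 1.69e-05). In treated SUM159, 6 rose and 5 fell of 15 tested (73.3%, against 73.7% of all genes). CALU, a calcium-binding protein of the secretory pathway, went from 635 to 1448 CPM there (1.19 on the log2 scale, edgeR adjusted p = 8.84e-10).

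For the 8 members that averaged 10 CPM or more in A549, the genes most like it were found by Pearson correlation of log2(CPM + 1) over the 10 A549 libraries, among 9621 genes. The points share groups and libraries, so these values are a description. S100P was most like MTMR10 (r = 0.996), MCCC1 and PIR, which went from 64.0, 30.6 and 89.3 CPM untreated to 23.2, 10.4 and 20.03 CPM in the combination. S100A10 was most like the actin-severing factor gene CFL1 (r = 0.996), DUSP3 and CHST3, and CFL1 went from 916 to 1313 CPM. S100A3 was most like YWHAG (r = 0.992), VTN and MAPKAPK3. S100A11 was most like BLOC1S2 (r = 0.988), RALB and the Notch ligand gene JAG1, and S100A4 was most like STMP1 (r = 0.980), ATP5ME and FITM2. S100A6 was most like TP53TG1 (r = 0.990), ATP6V1E1 and CLIP1. S100A13 was most like SEC22A (r = 0.984), LMAN2L and HGD, and S100A16 was like SLC35A2 (r = 0.982) and AP2M1. S100A2 and S100A14 lay under the 10 CPM needed.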

How the data were processed

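RNA of 14 libraries (7 groups of 2) was measured by sequencing of stranded, poly(A)-selected libraries. The authors deposited, for each library, a table of read counts per gene (60683 Ensembl gene identifiers and 9 summary lines), as whole numbers without normalization and with replicates kept apart. The submitters' processing notes name HISAT2 2.2.1, HTSeq and GRCh38. The annotation release and the strand setting of counting are not given in the sources used here. Symbols, positions and exon lengths of 60370 identifiers came from GENCODE release 44. Summary lines stayed out of totals and tests.

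Genes were kept with filterByExpr (a limit equal to 10 counts at the median library size, reached in at least 2 libraries; 15780 genes in A549, 15055 in SUM159, 17279 in both lines), scaled by the total count on genes and tested with edgeR 4.0.16 (R 4.3.3, quasi-likelihood F test, Benjamini-Hochberg adjustment over all genes tested, threshold 0.05). The A549 comparisons used all 10 A549 libraries, the SUM159 comparison 4 libraries and comparisons between lines all 14. S100A14 did not pass the filter in SUM159. Standard errors were derived from F, as the size of the log2 change over its root. An exact permutation test of 2 against 2 libraries has 0.333 as its smallest two-sided p and was not used. Replicate libraries of a group differed by more than counting noise (chi-square per degree of freedom 1.61 to 9.57). Intervals of count ratios are exact conditional 95% intervals. They and the limit of 3 counts cover counting error only, since the reads carry no molecular identifiers.

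The 10 genes and the lists of partners, neighbours and markers were chosen with earlier results of these data known. All 10 genes are named in every comparison. From each list other than the cell type markers at most the 4 most abundant genes and the 2 with the largest change among those called are named per comparison, from the other S100 genes those averaging 1 CPM or more in some group, and by likeness the 3 genes with the highest correlation, of which 1 is not reported here. Cell type markers are named where they define a type, those at 0 counts included. Each comparison was repeated with TMM scaling, with DESeq2 1.42.0, without the filter, with a stricter filter (mean count of 50 or more), with a model of the compared groups alone, with replicate number as a block, and with single libraries omitted. The code was tested on simulated data. Motif words were searched with Python 3.11.15, and figures drawn with matplotlib 3.10.9.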

Additional observations from a re-analysis of the deposited data

Results flagged for a closer look

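With S100A14 and S100P left out, for 7 of 8 genes the response to PF-06873600 differed between SUM159 and A549 when the difference itself was tested in edgeR over all 14 libraries. The differences, as the log2 fold change in SUM159 minus that in A549, were -3.35 for S100A2, -1.28 for S100A3, -0.62 for S100A10 and -0.56 for S100A16, and 0.52 for S100A4, 0.33 for S100A6 and 0.83 for S100A13. Those of the genes left out were 3.61 for S100P and 4.83 for S100A14. Of all genes tested 53.0% had such a difference. The direction of change was opposite in the lines for S100A2 and S100A13, each called in both lines, but DESeq2 did not call S100A13 in A549 (adjusted p = 0.0516), and that call was also lost when single libraries were left out. S100P fell in A549, and in SUM159 it passed the filter only through the treated libraries (3 and 8 counts untreated, 18 and 19 treated), so neither its direction there nor its difference is counted. The difference of S100A14 was also called, but it rests on 2 to 29 counts per library, was too low to be tested in SUM159 alone and entered this model only through A549, so its value is not read as a difference in response. No group had the 4 libraries needed to look for outlying libraries.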

How the results depend on the processing

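Of the 99 tests of a gene in a comparison, 76 were called, 63 of these were called under every alternative tried for them, and 0 of the called values changed sign. The number of members called, counted here over all that passed the filter, stayed within 1.5 times its value under all alternatives but one. Without A549_PI replicate 1 the interaction was called for 4 members (2 above and 2 below the sum) in place of 7, and the range over single libraries left out was 4 to 6. With each library left out, the number called was 2 to 4 for palbociclib, 6 to 8 for indisulam, 8 to 10 for the combination, 8 to 9 against palbociclib, 6 to 7 against indisulam, 7 to 8 for PF-06873600 in A549, 6 to 7 in SUM159, 9 to 10 between untreated lines and 9 for the response between lines. A lone library left in a group is assumed to vary like the other groups. The 76 calls and these ranges include calls of S100A14 and S100P that the counts further above leave out. In the main tests 15.7% of all genes were called with palbociclib, 45.5% with indisulam and 65.2% in the combination. The share was 60.4% against palbociclib, 46.0% against indisulam and 25.2% for the interaction. It was 56.3% for PF-06873600 in A549, 73.7% in SUM159, 78.7% between untreated lines and 53.0% for the response between lines. Values that changed sign belong to genes that were not called. Over the libraries left out in turn, S100A4 ran from -0.045 to 0.12 with palbociclib, from -0.038 to 0.099 against indisulam, from -0.059 to 0.10 with PF-06873600 in A549 and from -0.085 to 0.077 for the interaction, which was 0.025 with DESeq2. S100A11 ran from -0.034 to 0.041 with palbociclib and from -0.029 to 0.075 for the line difference, and S100A14 from -0.64 to 0.11 against indisulam. The summed level of the 10 genes, scaled with TMM factors, was 3277 CPM with palbociclib, 2932 with indisulam, 3978 with PF-06873600 in A549 and 2102 in untreated SUM159, against 3173, 3019, 3845 and 2207 CPM by total count. These shifts are the TMM factors themselves, by which each library's sum was divided. TMM scaling moved the median of all genes by at most 0.09 on the log2 scale. Counts of 2 to 29 per library limit S100A14 in every comparison.

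Replicate numbers are shared by the groups, but the labels give them no further meaning, and the correlation of the deviations of same-numbered libraries was over 0.1 only between indisulam and untreated A549 (0.271). It was -0.303 between palbociclib and untreated A549 and -0.247 between the untreated lines. With the replicate number as a block, 2 members were called for palbociclib (S100A16 lost, adjusted p = 0.0501) and 6 for the interaction (S100A2 lost, adjusted p = 0.0593), and the block changed no other call. With the palbociclib numbers crossed, an alternative chosen after seeing the data, 3 members were called, and with the SUM159 untreated numbers crossed 9 were.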
